A study of Mus musculus with 2 samples.

Results

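Open chromatin was examined around 8 microRNA genes of blood cells, Mir142, Mir144, Mir451a, Mir150, Mir155, Mir223, Mir21a and Mir146, in mouse spleen. They were taken by name from the 2202 microRNA genes that the GENCODE M21 annotation places on the 21 chromosomes of mm10. For each gene, every peak and footprint within 20 kb of the hairpin was collected, and the promoters of host genes were named. DNase-seq, which sequences the ends left where DNase I cuts accessible DNA in nuclei, had been run on whole spleens of B6CASTF1/J males aged 14 days, an F1 cross. The 2 libraries are biological replicates of 1 group, with pooled material of 3 males in replicate 1 and that of 1 male in replicate 2, under the same donor entry. No second group exists, so differences between the libraries are described without a test.

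A microRNA is cut from a hairpin in a longer primary transcript, often that of a host gene, and then guides Argonaute proteins to messenger RNAs that match its seed near the 5′ end. The promoter of the primary transcript can therefore lie far from the hairpin. Mir142 is active across blood cells, Mir144 and Mir451a form a cluster of developing red cells, and Mir150 marks mature lymphocytes. Mir223 is known from granulocytes and monocytes, Mir155 from activated lymphocytes and macrophages, Mir21a from many tissues, and Mir146 as a brake on signalling through NF-kB.

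The mature products are shown because their seeds, bases 2 to 8 in capitals, set which messages each gene can reach (RefSeq, GRCm38.p6).
miR-142a-5p: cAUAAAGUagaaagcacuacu
miR-142a-3p: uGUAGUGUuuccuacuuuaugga
miR-144-3p: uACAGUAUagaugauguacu
miR-451a: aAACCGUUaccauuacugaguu
miR-155-5p: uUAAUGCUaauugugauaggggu
miR-223-3p: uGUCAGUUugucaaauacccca
miR-21a-5p: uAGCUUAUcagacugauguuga
miR-146a-5p: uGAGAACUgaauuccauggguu
Mir142 gives 2 of these 8 products. Mir150 is not shown, because its 5p product was not among the sequences used. None of these 8 shares its seed with another of them. Among the other microRNA genes in the table, Mir146b carries the seed of miR-146a-5p and Mir21c that of miR-21a-5p.

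Next are the open sites that the results turn on: host or nearest promoters, the upstream site of the red cell cluster, and a site in Tspoap1. Each is written 5′ to 3′ on the strand of its microRNA gene from the mm10 reference, not from the F1 alleles. Capitals mark bases inside a footprint, a short stretch protected from cutting, of either library.
Mir142hg promoter, chr11:87755421-87755640, plus strand: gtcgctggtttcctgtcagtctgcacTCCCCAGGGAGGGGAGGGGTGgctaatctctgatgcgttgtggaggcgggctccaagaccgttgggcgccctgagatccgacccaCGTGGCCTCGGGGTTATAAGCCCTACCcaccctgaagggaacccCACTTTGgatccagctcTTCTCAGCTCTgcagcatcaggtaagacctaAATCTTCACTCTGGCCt
Tspoap1 exon site downstream of Mir142, chr11:87771101-87771280, plus strand: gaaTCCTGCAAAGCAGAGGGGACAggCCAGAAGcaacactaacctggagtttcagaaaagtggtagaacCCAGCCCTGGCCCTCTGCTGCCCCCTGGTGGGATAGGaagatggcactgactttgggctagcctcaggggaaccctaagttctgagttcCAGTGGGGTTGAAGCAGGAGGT
Mir144 upstream site, chr11:78069701-78070000, plus strand: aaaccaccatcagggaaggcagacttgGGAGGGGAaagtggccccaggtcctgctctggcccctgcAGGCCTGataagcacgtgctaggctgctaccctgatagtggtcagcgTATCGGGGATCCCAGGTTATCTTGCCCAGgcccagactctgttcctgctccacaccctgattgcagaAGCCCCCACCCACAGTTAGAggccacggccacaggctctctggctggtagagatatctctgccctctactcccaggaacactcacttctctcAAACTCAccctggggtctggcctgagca
Mir144 proximal site, chr11:78072521-78072740, plus strand: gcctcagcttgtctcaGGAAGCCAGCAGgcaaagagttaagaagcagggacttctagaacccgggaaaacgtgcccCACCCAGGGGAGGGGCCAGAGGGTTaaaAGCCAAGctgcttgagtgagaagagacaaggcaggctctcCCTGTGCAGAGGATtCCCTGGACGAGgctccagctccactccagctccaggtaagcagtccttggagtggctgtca
Mir155hg promoter, chr16:84703201-84703411, plus strand: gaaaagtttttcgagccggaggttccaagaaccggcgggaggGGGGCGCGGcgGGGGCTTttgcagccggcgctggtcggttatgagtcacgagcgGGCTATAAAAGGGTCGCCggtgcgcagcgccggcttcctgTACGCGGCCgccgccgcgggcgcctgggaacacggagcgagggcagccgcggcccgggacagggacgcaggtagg
Mir223 host promoter, chrX:96239861-96240004, plus strand: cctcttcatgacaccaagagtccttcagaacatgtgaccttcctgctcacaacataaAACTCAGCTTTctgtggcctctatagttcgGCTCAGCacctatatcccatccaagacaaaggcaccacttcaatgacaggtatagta
First peak upstream of Mir146, chr11:43385242-43385341, minus strand: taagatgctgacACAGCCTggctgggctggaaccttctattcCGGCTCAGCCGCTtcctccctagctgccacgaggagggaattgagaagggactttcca
Second peak upstream of Mir146, chr11:43385393-43385588, minus strand: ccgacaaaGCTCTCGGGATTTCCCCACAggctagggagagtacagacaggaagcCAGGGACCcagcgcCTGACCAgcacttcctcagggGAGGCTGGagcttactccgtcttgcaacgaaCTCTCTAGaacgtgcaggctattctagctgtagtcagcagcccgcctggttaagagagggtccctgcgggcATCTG

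All 8 genes had a peak of the strict list, the smaller of the 2 deposited lists per library, within 20 kb in replicate 1, where 52.1% of all microRNA genes had one. In replicate 2 this held for 6 of 8, beside 41.7% of all, and Mir223 and Mir21a had none. A strict peak in both replicates was present at 6 of 8, beside 41.4% of all microRNA genes. The median number of strict peaks per gene was 6 in replicate 1 and 3 in replicate 2, against 1 and 0 over all microRNA genes. The median number of footprints was 27 and 13.5, against 2 and 0. These medians describe a list chosen by name, in which Mir144 and Mir451a share every site, and have no test.

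Peak height is the authors' own signal value, on a scale not given in the sources used here, and read depth is unknown. Replicate 1 had 48286 strict peaks with a median height of 1.49, and replicate 2 had 28837 with a median of 1.79. As a check of the tissue label, the promoters of the red cell genes Hbb-bt and Klf1 and of the B cell genes Pax5 and Cd79a were open in both libraries.

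**Figure D1:**
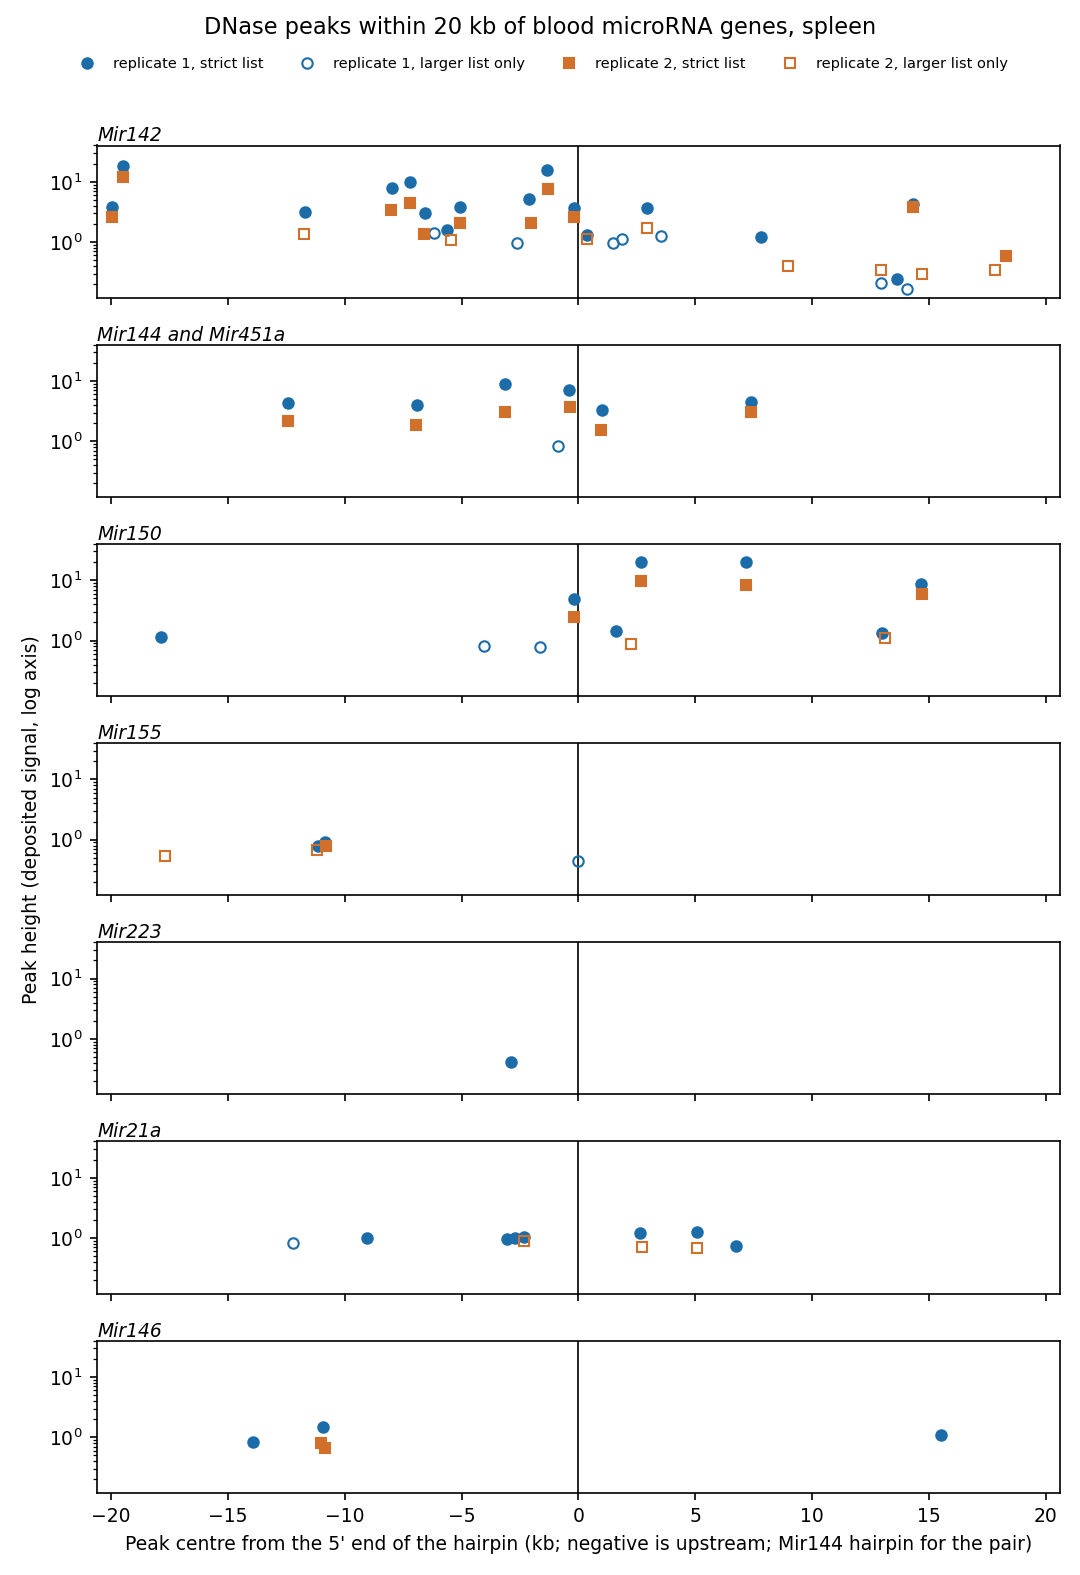
Height of each DNase peak (log axis) against the distance of its centre from the 5′ end of the hairpin in kb, with negative values upstream. Circles are replicate 1, squares replicate 2, filled symbols the strict list and open symbols peaks of the larger list alone; Mir142 has 16 and 11 strict peaks and Mir223 has 1 and 0.

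The Mir142 neighbourhood was the most densely open, with 16 strict peaks in replicate 1 and 11 in replicate 2 and with 71 and 57 footprints. The hairpin, at chr11:87756864-87756927 on the plus strand, lies within the non-coding host gene Mir142hg. The host promoter, printed above, spans the annotated start 1287 bases upstream of the hairpin. Its height was 15.6 in replicate 1 and 7.69 in replicate 2, and it held 4 and 6 footprints. Both values were well above the median peak of their library. The CCCNNGGGA letters of EBF, a B cell factor, were found in it inside a footprint of both replicates. The same held at the Mir144 proximal site of the red cell cluster, at chr11:78072599-78072607. These letters occur in 6.09% and 5.92% of all strict peaks.

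A row of intergenic sites lay between Supt4a, which encodes a transcription elongation factor, and Mir142hg. The site 7064 bases upstream of the hairpin reached 9.92 and 4.43. That at 7884 bases reached 7.91 and 3.43. Those at 6424 and 4930 bases were lower, at 3.06 and 1.37 and at 3.88 and 2.06. All 4 were thus open in both libraries. A further site, 11584 bases upstream, was 3.11 in replicate 1 and was in the larger list alone in replicate 2, at 1.36. Another, 1984 bases upstream and 697 bases from the host start, was 5.21 and 2.10.

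Close to the hairpin, a site that ended 44 bases before it had heights of 3.73 and 2.56 and held the GAGGAAGT letters of PU.1, a factor of myeloid and B cells, which occur in 4.26% and 2.41% of all strict peaks. A weaker site, 260 bases past the hairpin, was 1.33 in replicate 1 and 1.13 in the larger list of replicate 2. The highest peak in the window was not that of the host but of Supt4a, at 18.3 and 12.1, and a second Supt4a site was 3.78 and 2.60. At Tspoap1, whose product binds a mitochondrial outer membrane protein, 4 sites were in the strict list of 1 library alone. They were 3.63, 1.21 and 0.243 in replicate 1 and 0.586 in replicate 2, and the first was 1.73 in the larger list of replicate 2.

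The Tspoap1 exon site printed above, 14174 bases downstream of the hairpin, differed from the row upstream in its ratio between libraries. It was 4.23 in replicate 1 and 3.81 in replicate 2, a log2 ratio of 0.15, the lowest of the 22 sites near these genes that both libraries called. The GGNGGCAG letters of CTCF, the factor that anchors chromatin loops, lay inside a footprint in both libraries, on the minus strand. This site held 0 CG pairs. Across all strict peaks, 13.9% in replicate 1 and 14.8% in replicate 2 hold these letters in the middle 200 bases, so a match alone is common.

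Mir144 and Mir451a lie next to each other on the plus strand, at chr11:78073005-78073070 and chr11:78073170-78073241, with no annotated host gene on that strand. Their windows hold the same 6 sites, and all 6 were called in both replicates. The proximal site, which ended 265 bases before the Mir144 hairpin, had heights of 7.22 and 3.76. The site that ended 3005 bases upstream had 8.96 and 3.05. The upstream site was thus the higher of the pair in replicate 1, and the proximal site in replicate 2. The upstream site had a log2 ratio between libraries of 1.56, the largest of the 22 shared sites. In bulk tissue, fewer cells of a type and less open chromatin per cell cannot be told apart. Of the red cell promoters, Hbb-bt was 6.46 and 2.69, and Klf1 4.42 and 1.97. The B cell promoters were also higher in replicate 1, with Pax5 at 8.09 and 3.94 and Cd79a at 5.41 and 1.83. Their part in the difference was not tested.

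The other sites of the red cell cluster were lower. Those at 12345 and 6765 bases upstream were 4.32 and 2.16 and 4.02 and 1.84. A broad site of 620 bases in an intron of Eral1, a gene of mitochondrial ribosome assembly, began 651 bases past the Mir144 hairpin and was 3.35 and 1.55. The Eral1 promoter was 4.50 and 3.11. GATA1 and TAL1, whose letters were searched as AGATAAG and CAGATG, are the textbook factors of red cell genes. The longer GATA letters were not in any of the 6 sites, which says nothing of the factor, and 3.44% and 2.07% of all strict peaks hold them. They were found near Mir142, at the sites 6424 bases upstream and 2754 bases downstream of its hairpin. Near Mir21a, at the site 2329 bases downstream, they lay inside a footprint of replicate 2. The TAL1 letters were at 2 of the 6 sites, outside footprints, beside 14.3% and 10.97% of all strict peaks. The shorter core GATAA, added after the sequence had been seen, occurred 3 times, at the sites 6765 and 3005 bases upstream. In the latter, a match at chr11:78069830-78069834 on the minus strand lay inside a footprint of replicate 1 and overlapped one of replicate 2. It falls in the long run of capitals in the middle of the printed sequence. GATAA was in 23.8% of the strict peaks near all 8 genes in replicate 1, beside 16.9% of all strict peaks. In replicate 2 it was in 25%, beside 12.0%. Sites near Mir142, Mir150 and Mir21a also held it. The letters were added after these same sequences had been seen, and the shares were not tested. Other letters differed both ways. Those of AP-1 were in 14.3% and 12.5%, beside 5.21% and 3.86%. Those of CTCF were in 7.14% and 8.33%, beside 13.9% and 14.8%.

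Mir150, at chr7:45121757-45121821 on the plus strand, has no annotated host. Its nearest site ended 17 bases before the hairpin and was 4.86 in replicate 1 and 2.44 in replicate 2, with 10 and 6 footprints. The openness ran on into the hairpin. In replicate 1 all 65 hairpin bases had a deposited false discovery rate under 0.05, and in replicate 2 it was 46 of 65. Of the other 7 hairpins, Mir142 alone had such bases, 22 of 64 in replicate 1 and 0 in replicate 2. No strict peak and no footprint overlapped any of the 8 hairpins. The same site lies 177 bases from the start of the non-coding gene Gm45552.

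Promoters of neighbouring genes near Mir150 were higher. The promoter of Rpl13a, which encodes a protein of the large ribosomal subunit, was 20.03 and 8.34. The promoter of Flt3l, the growth factor that acts through Flt3 on dendritic cell precursors, was 8.64 and 5.86, and the non-coding Gm45713 starts close to it. Both were open in both libraries. In replicate 1 alone the strict list held a second Flt3l site at 1.35 and the promoter of Fcgrt, the neonatal Fc receptor, at 1.12. The second Flt3l site was in the larger list of replicate 2, at 1.08.

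Mir155, at chr16:84714140-84714204 on the plus strand, lies in the non-coding host Mir155hg, whose annotated start is 10973 bases upstream. The host promoter site printed above began 34 bases past that start and was weak in both libraries, at 0.932 and 0.773. A second site before the start was 0.781 in replicate 1 and, in the larger list alone, 0.683 in replicate 2. The first site was thus low in both libraries, at percentile 27.5 of replicate 1 and 11.5 of replicate 2. It held 30 CG pairs and 71.1% G and C. The TATAAA letters of a TATA box, also added after the sequence had been seen, lay at chr16:84703300-84703305, downstream of the annotated start at chr16:84703167. They were inside a footprint of replicate 1 and touched none of replicate 2. They occur in 4.14% and 3.09% of all strict peaks. The TGANTCA letters of AP-1, a factor of cell activation, lay outside footprints. The second annotated start of the host, 1117 bases upstream of the hairpin, had no peak in either list.

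Mir223, on the X chromosome at chrX:96242817-96242926, plus strand, had the least open surroundings. Its only peak was the 144-base promoter site of the non-coding host F630028O10Rik, with a height of 0.411 in replicate 1 and 2 footprints. It stood at percentile 1.06 of the peak heights of that library. Replicate 2 had no peak in either list, no footprint and not a single base under a false discovery rate of 0.05 in the whole window of 40110 bases. In replicate 1, 366 bases were under it, 0.912% of the window beside 0.898% of the genome. Males carry a single X, and the part of copy number in this height was not tested.

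Mir21a, at chr11:86584067-86584158 on the minus strand, overlaps the end of Vmp1, which encodes a membrane protein of autophagy. Replicate 1 had 7 strict peaks near it, all between 0.730 and 1.26, and replicate 2 had none. The larger list of replicate 2 held 3 of these sites, at 0.683, 0.724 and 0.903. The last of these was 1.04 in replicate 1 and lay 301 bases from the start of a short Vmp1 transcript, which begins 2723 bases upstream of the hairpin. The TGANTCA letters of AP-1 occurred at 3 of the 7 sites, outside all footprints at 2 of them, and are held by 5.21% and 3.86% of all strict peaks. The main Vmp1 promoter, 99663 bases upstream and outside the window, was 6.94 in replicate 1 and 4.51 in replicate 2. The host was thus open in both libraries at its main start, while the sites around the hairpin were weak in both.

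Mir146, at chr11:43374397-43374461 on the minus strand, has no annotated host. The site in both libraries lay 10720 bases upstream, at the start of the non-coding gene Gm12148, and was 1.502 in replicate 1 and 0.805 in replicate 2. Replicate 2 split it into 2 strict peaks, at 0.675 and 0.805, both printed above. The first held a match to the narrow NF-kB consensus that was searched, outside footprints of both libraries, at chr11:43385243-43385252. That consensus occurs in 0.373% of all strict peaks of replicate 1 and 0.281% of those of replicate 2. A broader NF-kB consensus, added after the sequence had been seen, also matched in the second peak, at chr11:43385565-43385574, where it overlapped footprints of both libraries without lying wholly inside any. The broader consensus occurs in 6.89% and 7.32% of all strict peaks. Further sites, 13861 bases upstream and 15357 bases downstream, were 0.831 and 1.11 in replicate 1 and were in neither list of replicate 2.

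**Figure D2:**
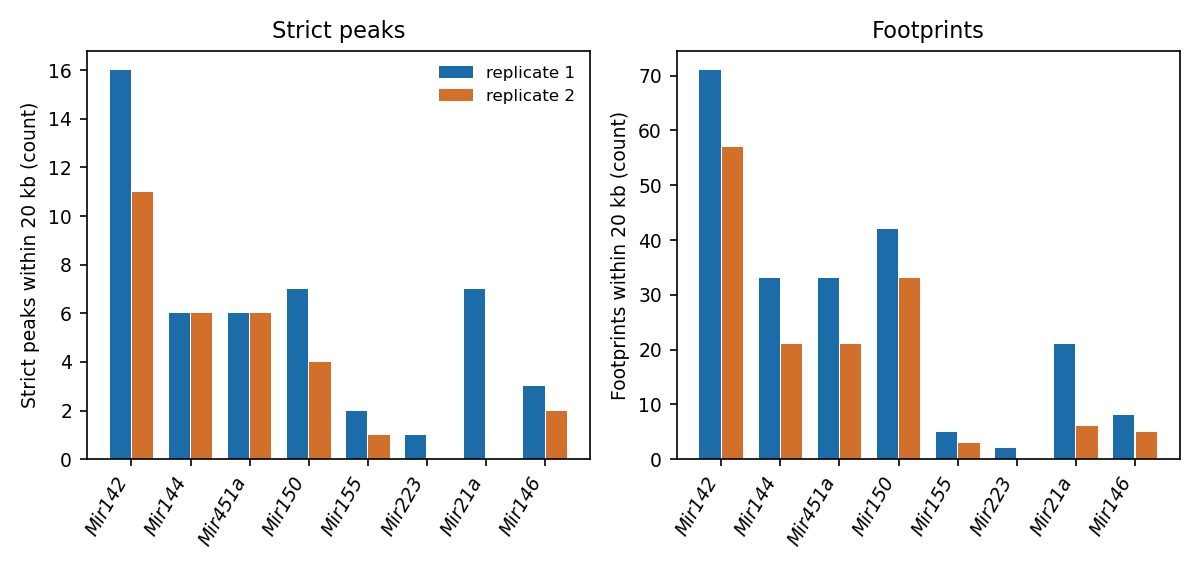
Strict peaks (left) and footprints (right) within 20 kb of each gene, as counts, with 1 bar per replicate. Footprints near Mir142 number 71 and 57 and those near Mir223 number 2 and 0; Mir144 and Mir451a share theirs.

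The highest peak within 20 kb was compared with that of all microRNA genes for 7 members, and the order below holds for this window alone. For Mir142, 6.40% of all microRNA genes had a higher peak in replicate 1 and 3.36% in replicate 2. The shares were 17.8% and 23.2% for Mir144 and Mir451a. In the Mir142 window a neighbour's promoter, that of Supt4a, set the value. For Mir146 the shares were 37.6% and 40.1%, and for Mir155 44.2% and 40.3%. In replicate 1 the share was 40.3% for Mir21a and 51.5% for Mir223, the lowest member; neither had a strict peak in replicate 2. With a 50 kb window the highest peak was 28.9 and 12.6 for Mir21a, above the 18.3 and 12.1 of Mir142, and 9.75 and 9.14 for Mir155. With a 5 kb window Mir155 and Mir146 had none. In the plot of highest peaks, Mir155 and Mir146 lie close together in replicate 2.

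**Figure D3:**
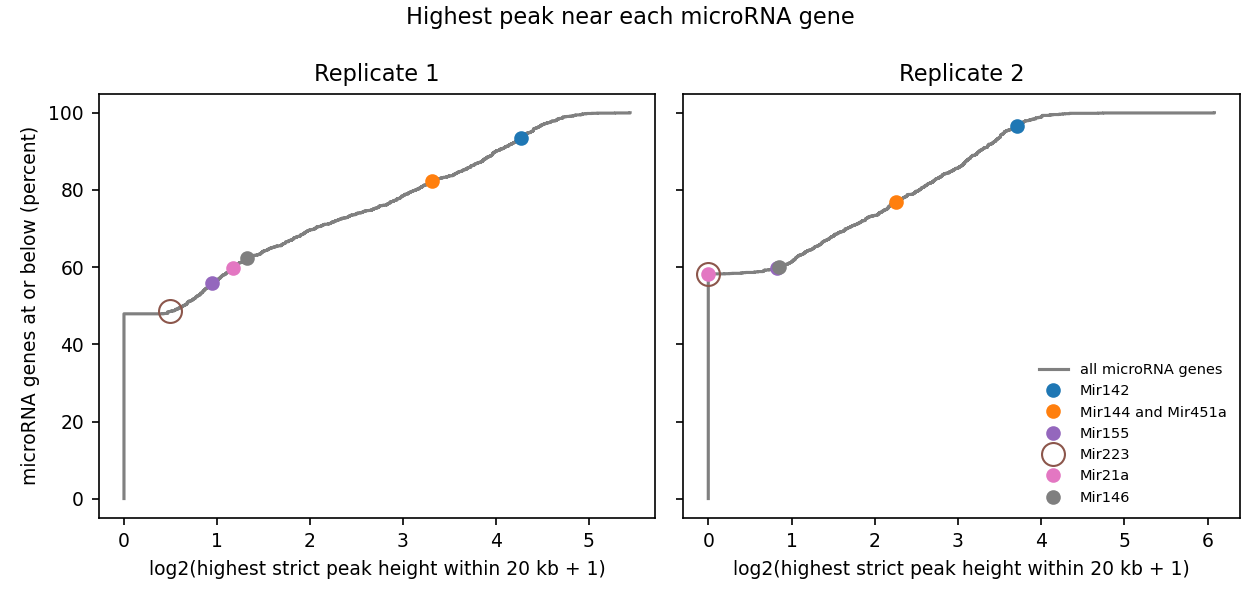
Cumulative percent of the 2202 microRNA genes (vertical axis) by the log2 of the highest strict peak within 20 kb plus 1 (horizontal axis), for each replicate, with 7 of the genes marked. Mir142 sits near the top in both; Mir223 (open ring) and Mir21a coincide at 0 in replicate 2.

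The windows held 43 distinct sites, of which 22 were called in both replicates, 20 in replicate 1 alone and 1 in replicate 2 alone. The shared part was 51.2%, beside 49.7% of all 50826 sites of the genome. Of the 20 sites in replicate 1 alone, 8 had a peak in the larger list of replicate 2. By place, 23 of 43 lay within 1000 bases of an annotated start, 15 between genes, 4 in exons and 1 in an intron.

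At the 22 shared sites the height was greater in replicate 1 every time, as at 88.6% of all shared sites. Heights in replicate 1 over those in replicate 2 had a median log2 ratio of 1.00 near the members and of 0.58 over all shared sites. Split by place, the 12 shared sites at start sites had a median of 0.75, beside 0.65 for all such sites, and 6 of 12 lay above the latter. The other 10 had a median of 1.12, beside 0.38 for all sites away from starts, and 9 of 10 lay above it. The exception was the Tspoap1 exon site with the CTCF letters. The bulk of all sites away from starts lay between -0.38 and 1.42. So did all of the 10 but the Mir144 upstream site. All 10 come from the windows of Mir142 and of Mir144 with Mir451a, 5 from each, so they are not independent. With 1 library per replicate, library and animals cannot be told apart.

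**Figure D4:**
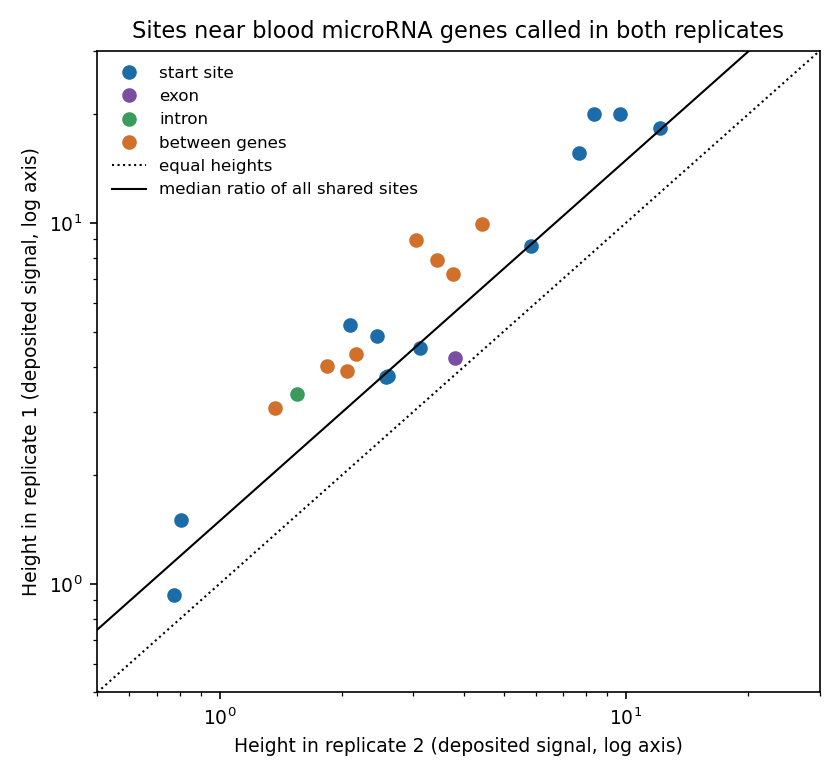
Peak height in replicate 1 against replicate 2 (both log axes) at the 22 shared sites, coloured by place, with lines for equal heights and for the median ratio of all shared sites. Most intergenic sites lie above the solid line, and the exon site lies near equal heights.

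Of the footprints near the members, 182 in replicate 1 and 125 in replicate 2, 78.0% and 71.2% lay in strict peaks, beside 71.5% and 68.7% of all footprints. Footprints that overlapped one of the other library made up 40.7% of those of replicate 1 and 60.8% of those of replicate 2, beside 42.0% and 66.6% overall. The share of bases under a false discovery rate of 0.05 was 21.8% and 15.5% in the Mir142 window, against 0.898% and 0.538% of the genome. In the Mir144 window it was 8.49% and 5.34%.

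The machinery that makes and uses microRNAs was widely open. A promoter peak in both replicates was present at 19 of 22 genes, beside 51.1% of all protein-coding genes. The highest were Tarbp2, the partner of Dicer, at 26.3 and 13.0, Ddx5, a helicase of the nuclear Microprocessor, at 22.0 and 14.3, and Dgcr8, the Microprocessor's RNA-binding subunit, at 22.5 and 10.6. Lin28a, an inhibitor of let-7 maturation, had none. The list's median height was 11.6 and 6.91, beside 1.29 and 0.838 over all protein-coding genes.

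Textbook targets of the members had a promoter peak in both replicates at 16 of 17 genes, beside 51.1% of all protein-coding genes. Their median height was 5.06 and 3.64, beside 1.29 and 0.838 over all protein-coding genes. Nfe2l2, a target of miR-144 that encodes an oxidative stress factor, was 26.7 and 13.7. Ywhaz, a target of miR-451a, was 22.5 and 10.1. Nlrp3, the inflammasome sensor targeted by miR-223, had no promoter peak. These counts were not tested.

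Among 36 other microRNA genes of blood, 26 had a strict peak within 20 kb in both replicates (72.2%). Among 30 known from other tissues, 10 had one (33.3%). The share of all microRNA genes was 41.4%, and the lists were not tested against it. These lists, like those of the machinery and the targets, were chosen with earlier results of these data known. Many of the listed microRNA genes share a cluster and so share peaks. The highest of the blood list were Mir22 at 27.7 and 12.4, Mir146b at 16.6 and 15.2, and Mir191 with Mir425 at 14.6 and 10.4. Those of the other tissues were Mir192 with Mir194-2 at 19.3 and 10.4 and Mir141 with Mir200c at 16.6 and 10.1. All these heights are of the highest peak anywhere within 20 kb. They were not assigned to a promoter and may be those of neighbouring genes. By the distance between log2(height + 1) pairs over the 2 libraries, the microRNA genes nearest to the members' median pair of 5.23 and 2.28 were Mir5130, at 5.10 and 2.31, Mir7074, at 5.42 and 2.17, and Mir6374, at 5.51 and 2.33.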

How the data were processed

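DNase-seq libraries of 2 spleen samples were used. The assembly was mm10, per the labels, with aligner, peak caller and footprint caller not given in the sources used here. Each library came with 2 deposited peak lists, in which the authors give every peak a signal value, called here its height; all heights of a library were multiples of a fixed step. The list with fewer bases is the strict one. Base runs with a deposited false discovery rate, a p-value type of unit, are listed only under 0.05. The deposited footprints carry 1 constant score, so positions alone were used.

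Peaks and footprints were collected within 20000 bases of each gene of GENCODE M21, with Python 3.11.15 and pandas 2.3.3. Sites joined peaks of both libraries that overlapped by at least 1 base. Promoters were 1000 bases either side of a start site. Motif letters were searched on both strands, with 21 motifs in all; 3 of them were added after the data were seen. Shares of peaks with a motif used the middle 200 bases, while matches named at single sites come from whole sites. The overlap and motif searches were tested on simulated data. Named genes were the members, genes with a start within 1000 bases of a strict peak, and the 3 highest of each list. Members of a list with no peak were named where there were few. So were the 3 microRNA genes nearest to the members' median pair of highest peaks. Results for some genes that this rule names are not reported here. The members and lists were chosen with earlier results of these data known. With 1 group there was no contrast, and nothing was tested. Alternatives were other windows, the larger lists, higher peaks, a stricter overlap and each replicate alone.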

Additional observations from a re-analysis of the deposited data

How the results depend on the processing

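The number of members with a strict peak in both replicates, 6 of 8, was 7 with the larger lists or a 50 kb window, 5 with the same number of strongest peaks, 4 with a 5 kb window or the strongest 50% of peaks, and 6 to 8 when either replicate was left out. The mean of 33 strict peaks became 13.5 at 5 kb, 55 at 50 kb and 21 with the strongest 50%, and was 24 to 42 with 1 replicate. Footprints, 153.5 on average, became 68.5 at 5 kb and 258 at 50 kb, and were 125 to 182 with 1 replicate. Shared sites, 22, became 9 at 5 kb and 39 at 50 kb. The share of all microRNA genes, 41.4%, became 21.6% at 5 kb and 55.8% at 50 kb. A narrower or wider window holds less or more DNA by construction. The median log2 ratio less that of all sites, 0.42, lay between 0.30 and 0.44 in all 4 alternatives. No paired analysis was possible because there is 1 group. Read depth is unknown, so an absent peak does not show closed chromatin.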
